A study of Mus musculus with 12 samples.

Results

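Genes that mark simple epithelia and the mesothelium, 10 of the 20661 genes counted, were followed through RNAseq and ribosome profiling of mouse embryonic fibroblasts (MEFs) with and without ARF. They are the simple keratins Krt7, Krt8, Krt18 and Krt19 and 6 further markers, Lrrn4, Msln, Upk1b, Upk3b, Wt1 and AW551984. The genes were taken by name, but they were chosen on measured values, the counts of the Arf-/--shSCR and WT-shSCR libraries, so the values of these 10 genes that set those groups against each other are a description, with no test. Tests of that comparison are given for other genes, and for the 10 only as counts of calls that restate the choice.

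Keratins are the intermediate filament proteins of epithelial cells, and each filament pairs a type II keratin (here Krt7 or Krt8) with a type I keratin (Krt18 or Krt19). The mesothelium is the sheet that lines the body cavities and covers the organs. It arises from mesoderm, keeps simple keratins beside mesenchymal filaments, and carries mesothelin (Msln) and uroplakins on its surface. Wt1, a zinc finger transcription factor, is expressed in the mesothelium and in the developing kidney and gonad. Fibroblasts are known for vimentin filaments and collagen, with little or no keratin.

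The groups were WT MEFs transduced with a lentiviral control hairpin (WT-shSCR), WT MEFs with a hairpin against ARF (WT-shARF) and Arf-/- MEFs with the control hairpin (Arf-/--shSCR), with 2 replicates per group and assay and 12 libraries in all. All were passage 4 cells. In the Arf-/- strain, B6.129X1-Cdkn2atm1Cjs/KaiJ, a neo cassette stands in place of exon 1β of Cdkn2a. The labels name the WT strain C57BL/6J while the methods name B6129SF2/J, so genotype, strain and MEF line cannot be told apart in the Arf-/- comparison, and the hairpin comparison shares the WT line. Neither source says whether replicates were separate cultures, so the spread between them may be technical. RNA was cut to fragments of 17 to 34 nt, and ribosome footprints, the stretches of mRNA that a ribosome shields, were made with RNase T1.

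RNAseq libraries held 1578627 to 3989908 reads on genes and footprint libraries 2544319 to 5157572. Cdkn2a, the targeted gene, encodes both ARF and INK4A, and its counts do not separate them, so the exon deletion is not checked by them. RNA counts of Cdkn2a were 119 and 65 in WT-shSCR, 1201 and 2852 in WT-shARF, and 76 and 75 in Arf-/--shSCR. Footprint counts were 285 and 168 in WT-shSCR, 1478 and 3575 in WT-shARF, and 206 and 178 in Arf-/--shSCR. Total Cdkn2a thus rose in the libraries labelled WT-shARF, by a log2 of 3.91 for RNA (SE 0.16, adjusted p = 5.57e-18, edgeR) and 2.99 for footprints (SE 0.14, adjusted p = 3.49e-17, edgeR), although the label names a hairpin against ARF. These counts cannot show whether ARF itself rose or fell. The authors show ARF knockdown by immunoblot and state that the hairpin leaves INK4A unaffected. What made the counts rise was not tested, and each value below is given for the libraries labelled WT-shARF. As for the label of the cells, all 13 fibroblast markers had RNA counts in each group, some of them few (Lum 1 and 4 in WT-shSCR). Their summed RNA level was 24700 to 28500 CPM (counts scaled to the size of the library) in WT-shSCR. It was 26300 to 26600 CPM in WT-shARF and 18800 to 20200 in Arf-/--shSCR. Vim alone had 7832 to 21183 RNA counts over the 6 RNAseq libraries.

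Because the counting kept uniquely aligned reads, the stretches that a member shares letter for letter with another gene bear on its counts. Of the 28 nt windows of its coding sequence, Krt8 shared 45.461% with other genes, nearly all of them with the processed pseudogene Krt8-ps. The share was 16.506% for Krt18, 2.679% for Krt7, 2.115% for Krt19, 0.755% for AW551984 and 0 for Lrrn4, Msln, Upk1b, Upk3b and Wt1. Of the 205 shared windows of Krt18, 167 were shared with Gm5200 and 27 with Gm17847. The longest stretch of each of the 3 members with the largest shares is given from GENCODE M21, 5′ to 3′, with positions counted from the first base of the coding sequence. Every base printed is shared, so none is in capitals. The Krt8 stretch (bases 385 to 683, 299 nt, shared with Krt8-ps), the Krt18 stretch (bases 784 to 837, 54 nt, shared with the processed pseudogene Gm17847) and the Krt7 stretch (bases 1135 to 1175, 41 nt, shared with the keratin Krt73) were these.
Krt8: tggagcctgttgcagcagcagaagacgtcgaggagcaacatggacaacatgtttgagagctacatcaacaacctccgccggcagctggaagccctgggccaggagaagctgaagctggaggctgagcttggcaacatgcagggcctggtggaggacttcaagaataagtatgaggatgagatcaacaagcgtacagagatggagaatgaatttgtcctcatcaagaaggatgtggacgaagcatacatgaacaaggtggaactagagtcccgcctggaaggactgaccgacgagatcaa
Krt18: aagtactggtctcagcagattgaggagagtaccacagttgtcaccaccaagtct
Krt7: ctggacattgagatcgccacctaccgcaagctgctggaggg
A fragment of 17 to 34 nt lying wholly inside one of these stretches has more than 1 exact place in the transcripts, and how far this lowered the counts was not tested.

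The positions in GRCm38 (mm10) come from GENCODE M21. Krt7 lies at chr15:101411043-101430313 (plus strand), Krt8 at chr15:101996698-102004482 (minus) and Krt18 at chr15:102028180-102032027 (plus), with 23697 nt between Krt8 and Krt18. Krt19 lies in the type I cluster at chr11:100140810-100148665 (minus). Of the other markers, Lrrn4 is at chr2:132868305-132880891 (minus), Wt1 at chr2:105126529-105173616 (plus), Msln at chr17:25748613-25754378 (minus), Upk1b at chr16:38773184-38800328 (minus), Upk3b at chr5:136038496-136046487 (plus) and AW551984 at chr9:39587396-39604403 (minus). Reads were counted over the coding exons. Krt7 overlaps the antisense gene Gm671 and Krt8 the noncoding gene Gm36026 on the other strand.

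Krt8 and Krt18, which pair in the first filaments of simple epithelia, were both higher in Arf-/--shSCR MEFs, Krt8 from near nothing and Krt18 from a level already present. RNA counts of Krt8 were 3 and 0 in WT-shSCR, 2 and 2 in WT-shARF, and 46 and 42 in Arf-/--shSCR. The footprint counts of Krt8 were 6 and 0, 5 and 6, and 86 and 107 in that order. Neither assay had any overlap between the Arf-/--shSCR libraries and the rest, and the ratio of pooled normalized counts to WT-shSCR was 24.3 for RNA (8.05 to 120) and 17.3 for footprints (7.82 to 47.8), where the ranges here and below are exact 95% intervals that cover counting error only. In bulk libraries such as these, more cells that express a gene and more RNA per cell cannot be told apart.

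Krt18 had 33 and 28 RNA counts in WT-shSCR, 20 and 58 in WT-shARF, and 55 and 88 in Arf-/--shSCR. Its footprints were 20 and 39, 29 and 58, and 129 and 145. Scaled to library size, both Arf-/--shSCR libraries lay above both WT-shSCR libraries, with a ratio of 1.94 for RNA (1.43 to 2.67) and 2.5 for footprints (1.88 to 3.37). The 2 keratins of this pair therefore differed in their ratios, and Krt8 RNA per kb of coding sequence stood at 0 and 0.0785 of Krt18 in the WT-shSCR libraries and at 0.412 and 0.722 of it in the Arf-/--shSCR libraries. Levels per kb were not corrected for the windows that either keratin shares with other genes.

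Krt19, a small type I keratin without a tail domain, was the most abundant member in all 12 libraries and the one with ratios nearest to 1 in Arf-/--shSCR. It had 201 and 114 RNA counts in WT-shSCR, 76 and 217 in WT-shARF, and 250 and 228 in Arf-/--shSCR, which are 73.5 to 75.7, 40.7 to 50.8 and 91.0 to 97.9 CPM. Footprints of Krt19 were 246 and 239, 164 and 366, and 502 and 490, or 80.6 to 94.2, 59.2 to 75.8 and 94.7 to 96.6 CPM. The Arf-/--shSCR libraries were above WT-shSCR by 1.26 for RNA (1.09 to 1.45) and 1.1 for footprints (0.988 to 1.23), and the nearest footprint libraries of these groups were at 94.2 and 94.7 CPM.

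Krt7, a type II keratin of ducts and the mesothelium, overlapped between Arf-/--shSCR and WT-shARF in RNA but not in footprints. RNA counts were 8 and 6 in WT-shSCR, 13 and 38 in WT-shARF, and 24 and 15 in Arf-/--shSCR. The RNA level was 7.94 CPM ± 1.37 (SD, n = 2) in WT-shARF and 7.59 ± 1.62 in Arf-/--shSCR, both above the 3.44 ± 0.607 of WT-shSCR and overlapping each other. The footprint counts were 3 and 5, 4 and 16, and 50 and 33, and here the Arf-/--shSCR libraries stood above those of both other groups, by 5.59 over WT-shSCR (2.71 to 13.4) and 3.04 over WT-shARF (1.85 to 5.23). For RNA the Arf-/--shSCR ratio over WT-shSCR was 2.31 (1.23 to 4.6), so against WT-shSCR the intervals of the 2 assays overlapped.

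**Figure D1:**
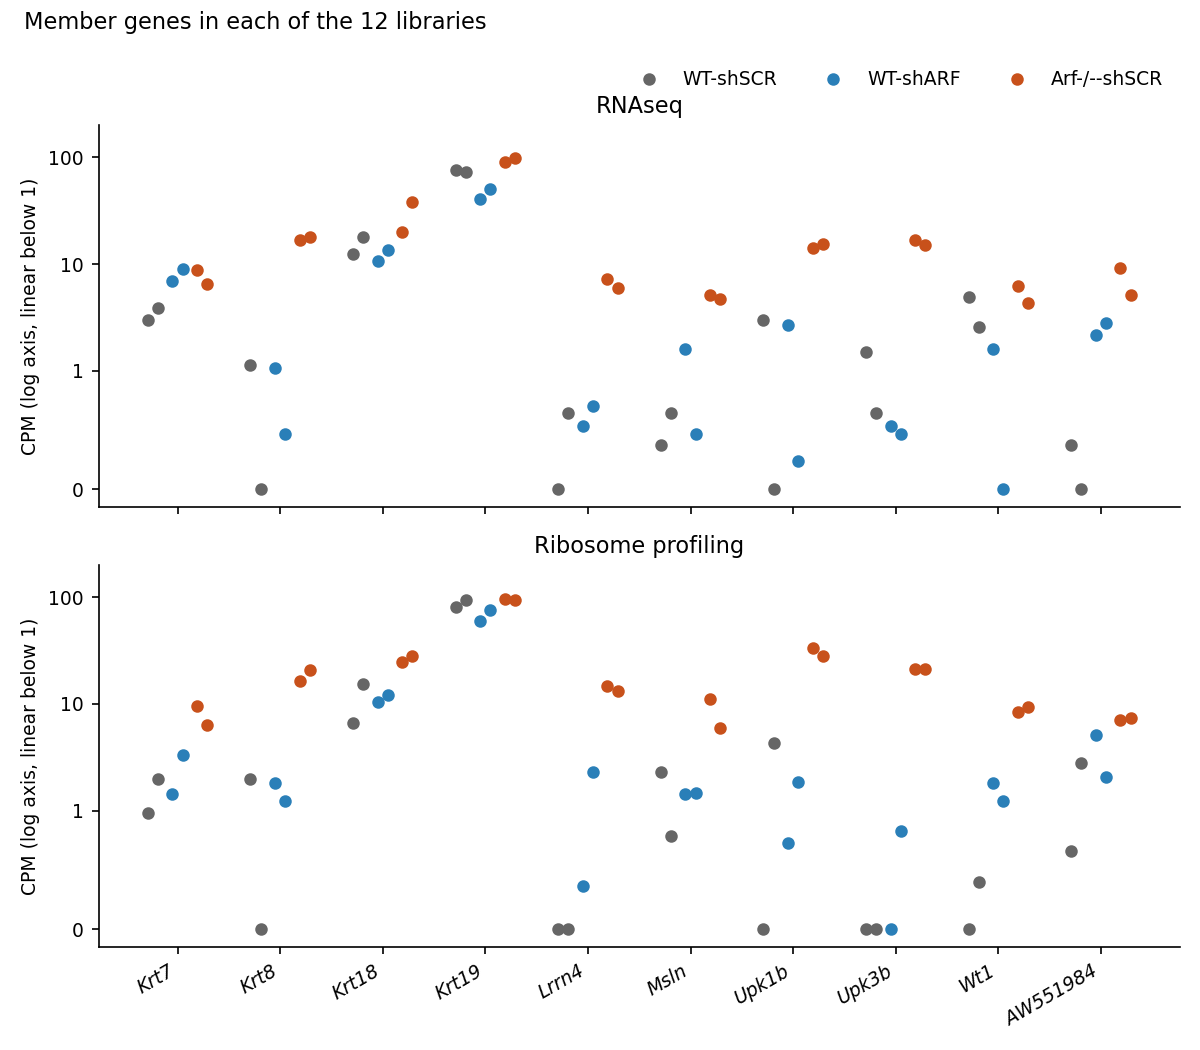
CPM of the 10 genes in each of the 12 libraries (symmetric log axis, linear below 1), RNAseq above and ribosome profiling below, 2 points per group. For footprints both Arf-/--shSCR points lie above all 4 other points in 10 of 10 genes, while Wt1 and Krt7 RNA overlap with another group.

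The balance of keratin types moved with these genes. Summed per kb, Krt7 and Krt8 came to 0.0376 and 0.041 of Krt18 and Krt19 in the WT-shSCR RNA libraries, 0.129 and 0.138 in WT-shARF, and 0.153 and 0.195 in Arf-/--shSCR. For footprints the ratios were 0.016 and 0.0286, 0.0399 and 0.0452, and 0.184 and 0.186. No library of one group overlapped with another group in either assay, and type I keratin was in excess in all 12 libraries. Here too the levels per kb were not corrected for windows shared with other genes. Krt19 made up 78.1% to 83.1% of the 4 keratins in WT-shSCR RNA and 63.4% to 69.2% in Arf-/--shSCR RNA, and 85.2% to 90.2% against 65.8% to 67.9% for footprints. Since these genes were chosen on the Arf-/- contrast, the ratios of those groups were not tested. For the libraries labelled WT-shARF, which the choice did not use, although it used their WT-shSCR controls, the ratio lay above WT-shSCR in 2 of 2 libraries of each assay, and with 2 against 2 libraries the smallest exact permutation p is 0.33, so that test cannot pass 0.05, and no other test of the ratio was run.

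**Figure D2:**
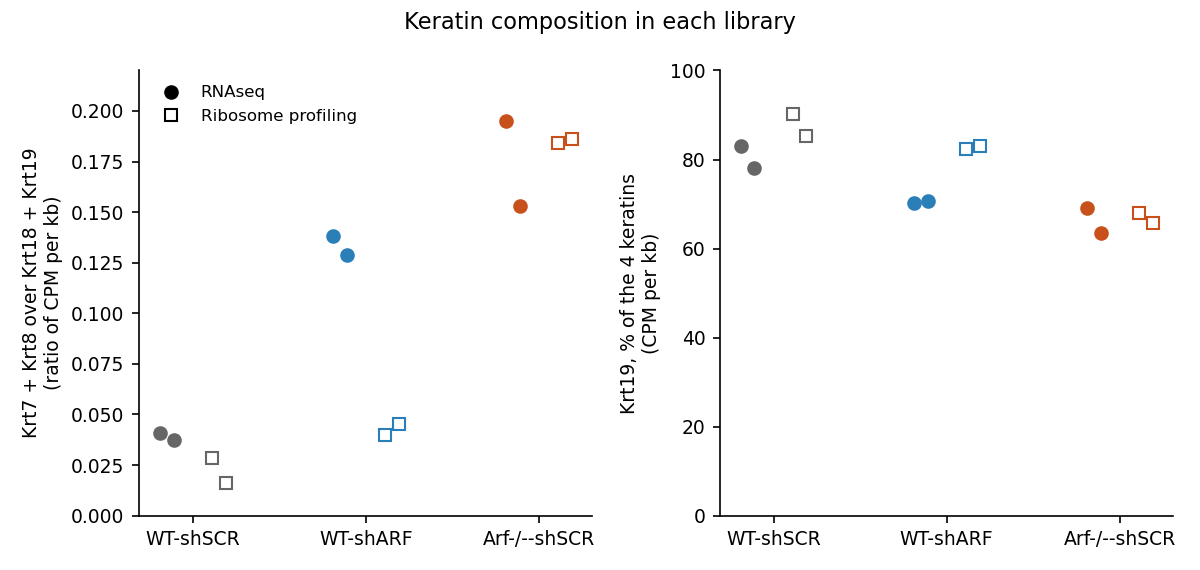
Left, the ratio of type II (Krt7 + Krt8) to type I (Krt18 + Krt19) keratin, in CPM per kb, for each library; right, the share of Krt19 among the 4 keratins in percent. Filled circles are RNAseq and open squares ribosome profiling; the Arf-/--shSCR libraries have the highest ratios, from 0.153 to 0.195.

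Lrrn4, Msln, Upk1b, Upk3b, Wt1 and AW551984 together had 7 to 27 RNA counts per WT library, hairpin libraries included, and 118 and 161 in the Arf-/--shSCR libraries. Footprints of the 6 summed to 9 to 47 counts per WT library and 441 and 497 in Arf-/--shSCR. In the WT libraries, 5 of the 10 members had no more than 8 RNA counts in any of the 4, and 4 of 10 no more than 8 footprints, so these levels sit at the limit of the depth.

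Upk3b and Upk1b belong to the uroplakins, membrane proteins first known from the bladder surface, of which both are also mesothelial markers. RNA counts of Upk3b were 4 and 1 in WT-shSCR, 1 and 2 in WT-shARF, and 46 and 35 in Arf-/--shSCR. Its footprints were 0 and 0, 0 and 4, and 111 and 110, the 2 Arf-/--shSCR libraries agreeing at 21.4 and 21.3 CPM. Against WT-shSCR, Upk3b RNA was higher by 13.4 (5.52 to 42.5). Its footprints were 39.7-fold higher, set against a floor of 3 counts over the 2 WT-shSCR libraries and with no counting interval. For Upk1b the RNA counts were 8 and 0, 5 and 1, and 39 and 36, and the footprints 0 and 11, 2 and 9, and 172 and 145. WT-shSCR libraries disagreed on Upk1b in both assays, and each Arf-/--shSCR library was above both of them, by 7.77 in pooled RNA (3.75 to 18.7) and 15.5 in pooled footprints (8.56 to 31.4). The other uroplakins, Upk1a, Upk2, Upk3a and Upk3bl, summed to 8 counts or fewer in every library, and none of these 4 passed the filter in any comparison.

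Msln, the surface glycoprotein mesothelin, had 1 and 1 RNA counts in WT-shSCR, 3 and 2 in WT-shARF, and 14 and 11 in Arf-/--shSCR. Its footprints were 7 and 2, 4 and 7, and 57 and 31. Every Arf-/--shSCR library was above the rest, at a ratio to WT-shSCR of 10.4 for RNA (2.58 to 90.2) and 5.27 for footprints (2.65 to 11.9). Lrrn4, a leucine-rich repeat membrane protein, had 0 and 1 RNA counts, 1 and 3, and 20 and 14 by group, and its footprints were 0 and 0, 1 and 11, and 76 and 69. Its RNA ratio was 28.2 (4.73 to 1150), the width coming from the single WT-shSCR count, and the footprints were 26.0-fold higher against the floor of 3 counts. Lrrn1, Lrrn2, Lrrn3 and Lrrn4cl did not follow: summed RNA of these 4 was 5.65 to 5.81 CPM in WT-shSCR and 4.0 to 6.44 CPM in Arf-/--shSCR.

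AW551984, which encodes a protein with a von Willebrand factor A domain, had 1 and 0 RNA counts in WT-shSCR, 4 and 12 in WT-shARF, and 25 and 12 in Arf-/--shSCR. Footprint counts were 2 and 7, 14 and 10, and 37 and 38. For RNA the 3 groups lay in separate ranges, 0 to 0.377, 2.14 to 2.81 and 5.15 to 9.1 CPM. The Arf-/--shSCR ratio to WT-shSCR was 30.7 for RNA (5.17 to 1240) and 4.49 for footprints (2.24 to 10.2).

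Wt1 differed between the assays. RNA counts were 13 and 4 in WT-shSCR, 3 and 0 in WT-shARF, and 17 and 10 in Arf-/--shSCR, which are 2.58 to 4.89, 0 to 1.61 and 4.29 to 6.19 CPM, so WT-shSCR and Arf-/--shSCR overlapped and the RNA ratio was 1.32 (0.692 to 2.57). Footprints of Wt1 were 0 and 1, 5 and 6, and 44 and 48. That is 1 footprint against 17 RNA reads in WT-shSCR and 92 footprints against 27 RNA reads in Arf-/--shSCR, and the footprint ratio was 49.6 (8.68 to 1980). Its fitted change of translation efficiency (TE, footprints relative to RNA) was a log2 of 4.9 (SE 1.25), an estimate that rests on that 1 footprint in the control. Over the 10 members the fitted TE changes ran from -2.61 for AW551984 (SE 1.48) to 5.36 for Upk3b (SE 1.67), and 6 were above 0. Lrrn4 stood at 3.9 (SE 2.48). Upk3b and Lrrn4 were both set against 0 footprints in WT-shSCR, so Wt1, Upk3b and Lrrn4 cannot be ranked. A pair of mesothelial genes outside the 10 had the same kind of counts: Bnc1 with 9 RNA reads and 0 footprints in WT-shSCR and 19 and 53 in Arf-/--shSCR, and Podxl with 5 and 0 and then 22 and 51. RNA reads without footprints also occurred far from the floor, since Dsg2 had 3219 RNA reads and 3 footprints in WT-shSCR and the hair keratin Krt82 had 180 and 1.

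**Figure D3:**
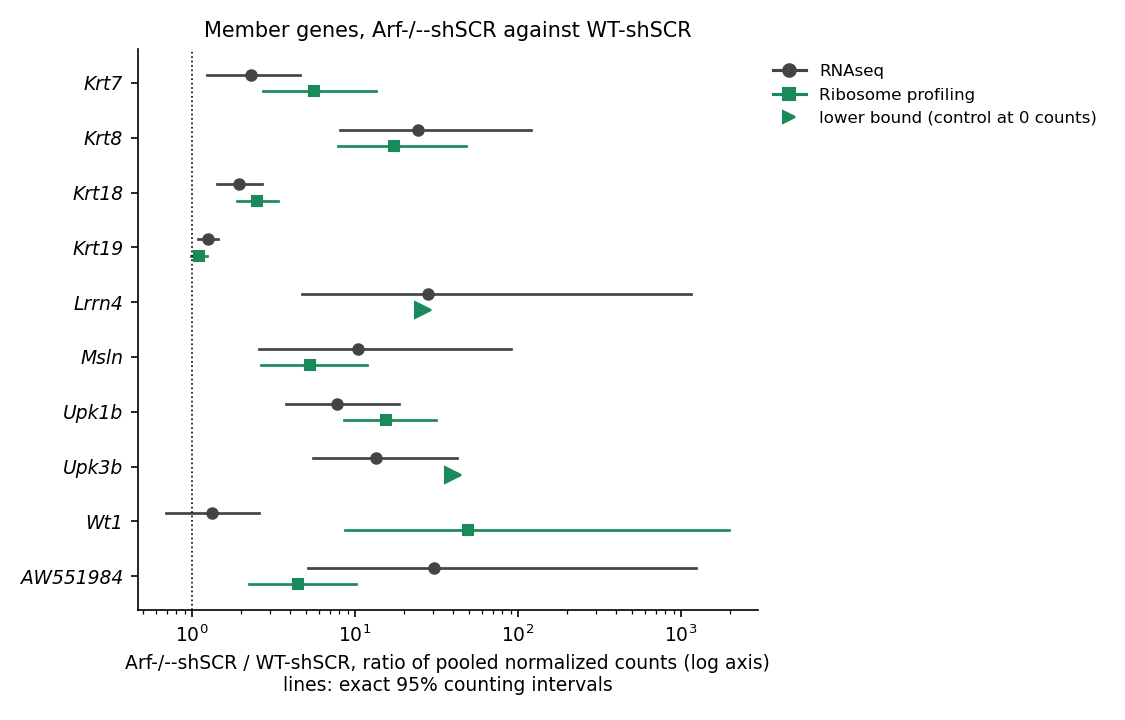
Ratio of pooled normalized counts, Arf-/--shSCR over WT-shSCR (log axis), with exact 95% counting intervals; triangles are lower bounds where WT-shSCR had 0 counts. Krt19 lies nearest to 1 in both assays, and Wt1 has an RNA ratio of 1.32 beside a footprint ratio of 49.6.

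Counted over the 10 members, Arf-/--shSCR libraries were both above WT-shSCR in 9 of 10 for RNA (not Wt1) and 10 of 10 for footprints, where 23.6% and 25.4% of all genes with at least 10 counts lay so. In the fit across all genes, edgeR at an adjusted p under 0.05 called 6 members higher for RNA, where 3.94% of all 10659 genes tested were called higher and 3.99% lower, and 9 for footprints, where 9.57% of 10737 genes were called higher and 8.95% lower. These counts restate the choice of the genes, and nothing is read from them. All 10 passed the filter on low counts in these fits, most of them through the Arf-/--shSCR libraries alone. For TE edgeR called 0 members, where 0.194% of 11314 genes were called in either direction. The members' median change was a log2 of 0.62 against -0.04 over all genes, with negative values for AW551984, Msln, Krt8 and Krt19. Leaving out 1 library gave TE values from -4.68 to 4.34 for Krt8 and from -4.63 to 6.66 for Upk1b. Set against the libraries labelled WT-shARF, Arf-/--shSCR RNA was higher in 9 of 10 members (not Krt7) and footprints in 10 of 10, with ratios from 0.924 for Krt7 RNA to 40.5 for Upk3b footprints (15.6 to 150). That comparison shares its Arf-/--shSCR libraries with the one used for the choice.

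Ordered by level per kb in the Arf-/--shSCR footprint libraries, the members ran Krt19 (79.1 CPM per kb), Upk1b (39.2), Upk3b (25.7), Krt18 (20.8), Krt8 (12.7), Lrrn4 (6.36), Krt7 (5.83), Wt1 (5.68), Msln (4.4) and AW551984 (3.0). The first 5 were separated from their neighbours in both libraries, whereas Lrrn4, Krt7, Wt1 and Msln overlapped. Levels per kb used the full coding length, with no correction for windows shared with other genes. That share was 45.461% for Krt8 and 16.506% for Krt18 against 0 for Upk1b and Upk3b, and its part in the places of Krt8 and Krt18 was not tested. For RNA the order was Krt19 (78.1 CPM per kb), Krt18 (22.8), Upk3b (19.2), Upk1b (19.0), Krt8 (11.8), Krt7 (5.54), Wt1 (3.36), Lrrn4 (3.02), AW551984 (2.96) and Msln (2.55). There Krt18, Upk3b and Upk1b overlapped, and so did the last 4. In WT-shSCR, Krt19 and Krt18 ranked first and second by mean in both assays, although Krt18 footprints overlapped those of Upk1b, with Krt19 at 61.7 CPM per kb of RNA and 72.3 of footprints, and the other 8 members were at 2.78 CPM per kb or below.

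Within the Arf-/--shSCR libraries, where all 10 members had at least 10 counts in each of the 4 libraries, their TE could be placed among 9361 genes. Lrrn4 had a log2 TE of 1.07, above 91.7% of these genes, and Upk1b 1.04, above 91.1%. Msln followed at 0.79, Wt1 at 0.76 and Upk3b at 0.42, so these 5 mesothelial markers stood above the all-gene median of -0.05. Krt7, Krt8, Krt18, Krt19 and AW551984 lay between -0.13 and 0.1, near the median gene. The choice of the genes used these Arf-/--shSCR libraries, so the members' TE in them is a description with no test. Of the 10 members, 9 were above the median, Krt19 and AW551984 by little (log2 TE of 0.02 each, with the median at -0.05). Only Krt18 and Krt19 had enough counts for the same in WT MEFs, with a log2 TE of -0.48 and 0.23 in WT-shSCR and -0.11 and 0.56 in WT-shARF.

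The comparison of WT-shARF with WT-shSCR asks whether the hairpin moved these genes. The WT-shARF libraries had no part in the choice, but the WT-shSCR libraries did, and genes chosen as low there lean toward higher ratios here, most of all where the control has 0 or 1 count. Across the fit, 3.11% of 10503 genes were called higher and 4.17% lower for RNA. Krt7, Krt18 and Krt19 passed the filter, and edgeR called 1 of these 3, Krt19, which was lower by a log2 of -0.69 (SE 0.2, adjusted p = 0.0277) and lower in 2 of 2 libraries. DESeq2 called none (adjusted p = 0.149 for Krt19). The call also ended when WT-shSCR replicate 1 (adjusted p = 0.0762, edgeR), WT-shARF replicate 1 (0.291) or WT-shARF replicate 2 (0.0918) was left out, with log2 values between -0.55 and -0.87. Krt7 was higher in 2 of 2 libraries (log2 1.25, SE 0.58), which did not pass (adjusted p = 0.209, edgeR), and Krt18 did not either (log2 -0.27, SE 0.39, adjusted p = 0.76, edgeR).

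For footprints, 5.63% of 10307 genes were called higher and 5.5% lower. Krt18 and Krt19 passed the filter and neither was called by edgeR or DESeq2, although 1 of these 2 had an unadjusted p under 0.05. Krt19 footprints had a log2 of -0.36 (SE 0.17, adjusted p = 0.205, edgeR), lower in 2 of 2 libraries, and Krt18 footprints 0.06 (SE 0.45, adjusted p = 0.96, edgeR). The TE test called none of 3 members with edgeR or DESeq2, 0 of them at an unadjusted p under 0.05, where 0.0354% of 11289 genes were called. Krt19 TE had a log2 of 0.34 (SE 0.27, adjusted p = 0.863, edgeR).

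The remaining 7 members had too few counts for the test in these libraries, and so had Krt7 for footprints. Their values are given as ratios with counting intervals. AW551984 RNA was higher in 2 of 2 libraries at a ratio of 11.0 (1.7 to 460), while its footprints overlapped (1.96, 0.88 to 4.79). Wt1 went in opposite directions, lower in RNA at 0.121 (0.0227 to 0.418) and higher in footprints at 8.09 (1.18 to 348), on 3 against 17 reads and 11 against 1. Lrrn4 footprints were 2.94-fold higher against the floor of 3 counts, on 12 counts of which 11 came from 1 library. Krt8, Msln and Upk1b overlapped between these groups in both assays, with intervals as wide as 0.155 to 6.24 for Krt8 RNA. Upk3b RNA was lower in 2 of 2 libraries at 0.411 (0.0639 to 2.11), on 3 against 5 reads, and its footprints overlapped. Krt7 footprints overlapped as well (1.84, 0.776 to 4.83). Over the 10 members, RNA lay higher in 2, lower in 3 and overlapped in 5, and footprints lay higher in 2, lower in 1 and overlapped in 7. Of all genes with at least 10 counts, 23.0% lay higher and 22.7% lower for RNA and 23.4% and 24.3% for footprints, so the members' counts were close to those of any gene.

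**Figure D4:**
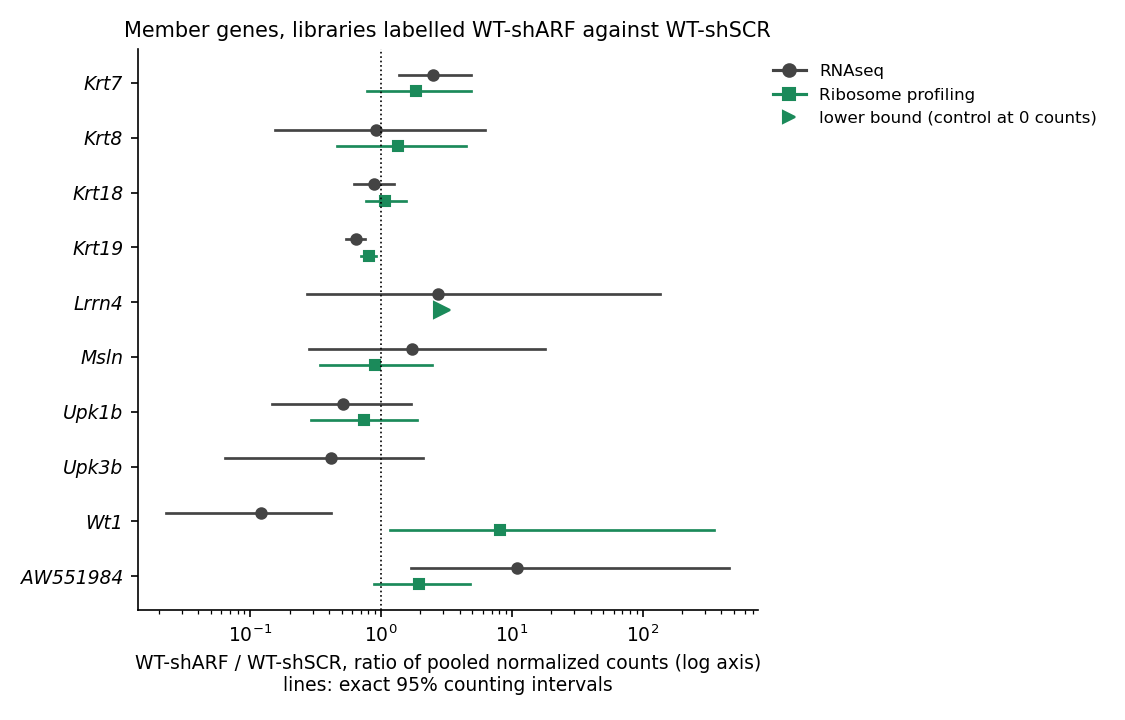
Ratio of pooled normalized counts, libraries labelled WT-shARF over WT-shSCR (log axis), with exact 95% counting intervals; the triangle is a lower bound, and Upk3b footprints (4 counts against 0) are not drawn. Krt19 lies below 1 in both assays, at 0.638 for RNA and 0.804 for footprints.

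Other genes of the mesothelium and its precursor, the coelomic epithelium, were read from a list of 16, 15 of them in the files. The list was drawn up as markers of these tissues, with earlier results of these data known, so its counts are not independent of them. In Arf-/--shSCR against WT-shSCR, 6 of 9 tested were called higher for footprints and none lower, where 9.57% of all genes were called higher. For RNA 2 of 7 were called higher, where 3.94% of all genes were. The medians were 0.72 and 0.67 on the log2 scale against 0.0 over all genes in both assays. For footprints DESeq2 called 4 of these genes, and leaving out WT-shSCR replicate 1 or Arf-/--shSCR replicate 2 left 3. For RNA no call of the 2 was left without either WT-shSCR library, and 1 without Arf-/--shSCR replicate 2, with DESeq2 and with a replicate block. Igfbp6, a binding protein of insulin-like growth factors, rose by a log2 of 1.59 for RNA (SE 0.27, adjusted p = 0.000695, edgeR) and 1.5 for footprints (SE 0.23, adjusted p = 8.15e-06, edgeR). Ezr, which links actin to the membrane of microvilli, rose by 0.73 and 0.56. Bnc1, a zinc finger factor, had 0 and 0 footprints in WT-shSCR and 27 and 26 in Arf-/--shSCR (adjusted p = 0.000706, edgeR), and Podxl, a sialomucin, 0 and 0 and then 23 and 28 (adjusted p = 0.000868, edgeR). Gpm6a, also called higher for footprints, had 3 and 7 and then 27 and 53. Bnc1, Podxl and Gpm6a needed the Arf-/--shSCR libraries to pass the footprint filter, so a lower call was hardly possible for them. Efemp1, an extracellular matrix protein, rose instead in WT-shARF, by 1.7 for RNA and 1.28 for footprints (SE 0.22, adjusted p = 0.000116, edgeR), and was at -0.12 and -0.23 in Arf-/--shSCR. It was the 1 gene called of 6 tested in each WT-shARF comparison, and for RNA DESeq2 called none. Aldh1a2, which makes retinoic acid, had negative values in Arf-/--shSCR, with a log2 of -1.03 for RNA (SE 0.34, adjusted p = 0.069, edgeR) and -0.83 for footprints (SE 0.33, adjusted p = 0.0735, edgeR). Without WT-shSCR replicate 1 its footprints were called lower (log2 -1.22, SE 0.33, adjusted p = 0.048, edgeR). Tbx18, a T-box factor, was at -0.46 and -0.47 and was not called. Calb2, Rspo1, Slpi and Tcf21 were at 0 in both WT-shSCR RNA libraries and stayed near it in Arf-/--shSCR. The Arf-/--shSCR RNA counts were 2 and 1 for Calb2, 0 and 2 for Rspo1, 0 and 3 for Slpi, and 4 and 0 for Tcf21.

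The other 47 keratin genes were mostly near or at 0. For footprints 2 passed the filter in Arf-/--shSCR and none was called by edgeR or DESeq2, with 0 at an unadjusted p under 0.05. For RNA 1 of 5 was called, Krt33a, a hair keratin. It needed the Arf-/--shSCR libraries to pass the filter, so a lower call was hardly possible for it. Krt33a RNA was called higher, by a log2 of 2.74 (SE 0.66, adjusted p = 0.0141, edgeR), from 3 and 3 reads to 32 and 19, while its footprints were 0 and 0 and then 1 and 1. That call ended without either WT-shSCR library, without Arf-/--shSCR replicate 1 and with at least 10 counts required in every library. Summed footprints of the 47 were 21.3 to 27.2 CPM in WT-shSCR and 16.4 to 18.7 in Arf-/--shSCR. Krt20 RNA was called lower in WT-shARF (log2 -3.66, SE 0.93, adjusted p = 0.0125, edgeR). DESeq2 called none of the 47 in either RNA comparison.

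Of 18 epithelial junction genes none was called higher in Arf-/--shSCR in either assay, and 3 of 6 tested were called lower for RNA and 2 of 5 for footprints. Jup, the junction protein plakoglobin, fell by 0.67 for RNA and by 0.65 for footprints (SE 0.11, adjusted p = 3.78e-05, edgeR), and Pkp1, a plakophilin of desmosomes, fell by 2.01 for footprints (SE 0.56, adjusted p = 0.0102, edgeR). Dsg2 and Tjp3 RNA fell too, but both had 5 footprints or fewer in every WT library. The RNA calls were 0 without either WT-shSCR library, and the footprint calls were 1 without WT-shSCR replicate 1 or Arf-/--shSCR replicate 2. In WT-shARF RNA, Jup and Dsg2 were called lower too, by -0.57 and -0.87, and no junction gene was called in footprints, where 1 of 4 had an unadjusted p under 0.05 and DESeq2 called none. Cdh1 and Epcam did not pass the filter in any fit of the level. Among 11 epithelial transcription and splicing factors none was called in Arf-/--shSCR by edgeR or DESeq2, with 1 of 2 tested for RNA and 2 of 3 for footprints at an unadjusted p under 0.05. For footprints 1 gene was called higher without WT-shSCR replicate 1 and with the replicate block, and for RNA 1 gene without Arf-/--shSCR replicate 1. Esrp1, a splicing factor of epithelia, was lower in WT-shARF RNA (log2 -0.86, adjusted p = 0.0127, edgeR). Of 7 mesenchymal transcription factors Prrx1 was called higher in both assays (log2 0.97 for RNA and 0.64 for footprints) and Snai1 for footprints (0.5). The Prrx1 RNA call ended without either WT-shSCR library, without Arf-/--shSCR replicate 1 and with DESeq2, and the 2 footprint calls went to 0 without WT-shSCR replicate 1 or Arf-/--shSCR replicate 1 and to 1 without either other library.

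Among the other intermediate filament genes, 13 in all, Lmnb1, a nuclear lamin, rose in Arf-/--shSCR by 0.88 for RNA and 0.81 for footprints (SE 0.11, adjusted p = 8.17e-07, edgeR), and Nes, the filament protein nestin, fell by 1.06 for RNA and fell by 1.63 for footprints. Synm fell in footprints. The RNA call of Lmnb1 ended without either WT-shSCR library and that of Nes without WT-shSCR replicate 1, and 1 of the 2 lower footprint calls ended without WT-shSCR replicate 1 or Arf-/--shSCR replicate 1. Vim, the main filament of fibroblasts, was called in neither assay there and higher in WT-shARF footprints by 0.21. Of 10 genes tied to Wt1 in kidney and gonad, 3 were tested for RNA and 4 for footprints. Gata4 needed the Arf-/--shSCR libraries to pass the filter in both assays, so a lower call was hardly possible for it. Its RNA counts were 3 and 1 in WT-shSCR and 17 and 16 in Arf-/--shSCR. Gata4 was called higher in both assays (log2 2.72 for RNA, SE 0.77, adjusted p = 0.0355, edgeR, and 3.44 for footprints) and Synpo was called lower for RNA. DESeq2 called none of these, the Gata4 RNA call ended when any 1 library was left out, and its footprint call and the Synpo RNA call ended without either WT-shSCR library or Arf-/--shSCR replicate 2.

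Markers of other cells moved as well. All 12 macrophage markers were detected in WT-shSCR, with a summed RNA level of 691 to 706 CPM there, 253 to 344 in WT-shARF and 61.5 to 102 in Arf-/--shSCR, and summed footprints of 787 to 814, 301 to 377 and 59.3 to 71.7 CPM. In Arf-/--shSCR 9 of 11 tested were called lower for RNA and 11 of 12 for footprints, and the RNA count was 5 without WT-shSCR replicate 1. Lyz2, a lysozyme of macrophages, had 574 and 381 RNA counts in WT-shSCR and 30 and 44 in Arf-/--shSCR. Endothelial markers summed to 29.0 to 42.2 CPM of RNA in WT-shSCR and 26.9 to 27.9 in Arf-/--shSCR, and no gene of that list was called for RNA or footprints by edgeR or DESeq2, with 0 at an unadjusted p under 0.05. The fibroblast list was called in both directions, 4 higher and 5 lower of 13 for footprints. Whether the makeup of the cells differed between groups, and its part in the levels of the 10 members, was not tested.

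Over the 12 libraries the members did not form 1 pattern. Pearson's r between pairs of them, on log2 CPM centred within each assay, ran from 0.17 to 0.96 with a median of 0.72 over 45 pairs, a description in which all points share their libraries and the contrast used for the choice. Upk3b was closest to the mean of the 10 (r = 0.986) and Krt19 farthest (0.562). Outside the 10, the genes most like that mean among 11899 were Crabp1 (0.958), Crispld2 (0.948), Gdf6 (0.947), Snrpa1 (0.939), Col6a3 (0.938), Eif3m (0.935), Gcat (0.934) and Naca (0.933). Crabp1, which binds retinoic acid, had 9 to 35 RNA counts in the WT libraries and 66 to 70 in Arf-/--shSCR, and 30 to 61 and 261 to 336 footprints. Gdf6, a bone morphogenetic protein, had 1 to 9 and then 20 to 24 RNA counts, and 6 to 22 and then 120 to 124 footprints.

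Promoter windows from 250 bases before to 50 after each start, were given by RefSeq (GRCm38.p6) for 6 of the 10 members, 8 windows in all, namely Krt7, Krt8, Krt18, Lrrn4, Upk3b and AW551984. They were searched on both strands for the TATA box TATAAA, the CCAAT box, the GC box GGGCGG, the AP-1 letters TGACTCA, the letters GCGGGGGCG bound by zinc finger factors of the EGR and WT1 kind, and the grainyhead letters AACCGGTT. No motif was found in more than 2 members. TATAAA stood in Krt8 only, and in 13.6% of all 32851 promoters, and TGACTCA in AW551984 only, and in 5.2%. GGGCGG stood in Krt7 and AW551984, with 35.7% of all promoters, and CCAAT in AW551984, with 37.4%. GCGGGGGCG (2.91% of promoters) and AACCGGTT (0.146%) were in none of the 8 windows, which says only that these letters are not there. The 3 windows printed here show the matches that are least common among promoters beside 1 of the 4 GGGCGG matches of Krt7, with the motif in capitals, for chr15:102004326-102004355 (minus), chr9:39604253-39604282 (minus) and chr15:101412263-101412292 (plus). In Krt8 the match on the other strand overlaps the one shown. The first base of the Krt8 match lies at -1 from the start, and whether these letters act as a TATA box was not tested. The AW551984 match begins at -1 from 1 start and at -147 from another, and the Krt7 match at -128.
Krt8: ggcctcttctttTATAAAgggccttcgctg
AW551984: ttcatttttctTGACTCAcagcaccgggat
Krt7: ggcggcggctggGGGCGGtgcgagggcaga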

How the data were processed

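RNAseq and ribosome profiling were carried out on 12 libraries, 2 per group and assay. The authors clipped adapters, split reads by barcode, removed reads of noncoding RNA, aligned to mm10 with TopHat and counted coding sequence with HTSeq, and the deposited values are these raw counts per gene. The submitters' processing notes also name cutadapt, UMI-tools and Bowtie2. Alignments that were not unique, 79.22% to 81.38% for RNAseq and 46.34% to 52.92% for footprints, were left out by the authors. CPM used TMM factors over the 6 libraries of an assay. Fits used edgeR 4.0.16 (R 4.3.3), TMM, filterByExpr and the quasi-likelihood test across all genes, over 4 libraries, or 8 for TE, where a term for assay by condition was tested, with Benjamini-Hochberg adjustment at 0.05. DESeq2 1.42.0, with its own filtering, was an alternative. The fits of Arf-/--shSCR against WT-shSCR were tested on simulated counts, and those of WT-shARF were not. Ratios of pooled counts have exact 95% intervals. A group at 0 was set to a floor of 3 counts over its libraries, which gives a value without an interval. Likeness used log2 CPM with a prior count of 2. Members, gene lists and motifs were chosen with earlier results of these data known. Named list genes are up to 4 called genes with the smallest p per comparison; Bnc1, Podxl, Dsg2, Tjp3 and Krt82 as genes with RNA reads and few footprints, Vim, Cdh1, Epcam, Lyz2, Aldh1a2, Tbx18 and the genes at 0 were named after their values were seen. No 2 replicates agreed within sampling noise (chi-square per gene 3.77 to 6.97).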

Additional observations from a re-analysis of the deposited data

How the results depend on the processing

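No library of a group of 2 can be checked as an outlier, and depth limits the WT levels of most members, which hold few counts. Over the whole table, the number of genes called moved by more than 1.5 times with DESeq2, which also used its own filtering on 15841 to 18225 genes, so that tool and filter changed together, from 845 to 414 for RNA and 1988 to 1153 for footprints in Arf-/--shSCR, and from 765 to 291 and 1147 to 691 in WT-shARF; WT-shARF RNA gave 504 with all 3 groups in one fit. TE calls went from 22 in Arf-/--shSCR to 79 with DESeq2, 123 without a filter, 34 with at least 10 counts in every library and 49 with all 3 groups in one fit, and from 4 in WT-shARF to 55, 40, 13 and 0. The WT-shARF count of members called for RNA went from 1 to 0 with DESeq2. The cause was not tested.

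Leaving out 1 replicate gave 57 (without WT-shSCR replicate 1) to 828 genes called for Arf-/--shSCR RNA and 266 to 928 for WT-shARF RNA, 1110 to 1254 and 651 to 1043 for footprints, 5 to 49 and 1 to 34 for TE, and 0 to 1 members called for WT-shARF RNA. No value changed sign while called.

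Replicate numbers did not pair the samples (r of same-numbered deviations -0.021 to 0.017). With the replicate block WT-shARF TE gave 35 calls, and the other counts stayed within 1.5 times. At 30 or more counts the Arf-/--shSCR RNA correlation was -0.118, so a block with crossed numbers was added after seeing the data, and gave 1438 genes called. The summed CPM of the members moved by less than the spread between replicates with raw totals or RLE factors.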
